A study of Homo sapiens with 4 samples.

Results

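The genes described here are metal-binding and iron-handling stress genes: the metallothioneins MT1E, MT1F, MT1G, MT1H, MT1X and MT2A, heme oxygenase 1 (HMOX1), the ferritin light and heavy chains (FTL and FTH1) and the transferrin receptor (TFRC). They were chosen by name, with earlier results of these data known. Every probe set was taken whose platform annotation names 1 of these 10 genes and no other gene. This gave 15 of 22215 probe sets, for 9 of the 10 genes, where the whole array names 11963 genes. No probe set analysed here names FTH1 alone, so FTH1 has no value of its own.

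The study used LNCaP, a prostate cancer cell line of human origin that responds to androgen, kept in RPMI-1640 with fetal bovine serum. Cells were transiently transfected with Lipofectamine, a cationic lipid reagent, and RNA was taken after 24 hours for an Affymetrix expression array. The MED1 samples (n = 2) received an expression vector for MED1, the Mediator subunit through which nuclear receptors contact the RNA polymerase II machinery, and the empty vector samples (n = 2) received the vector without it. Both groups were thus exposed to lipid and plasmid, and values from untransfected cells are not analysed here.

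Metallothioneins are small, cysteine-rich proteins that bind zinc and copper and can take up cadmium. Zinc activates the transcription factor MTF1, which binds metal response elements in their promoters, so metallothionein transcripts are widely used as a readout of free zinc, and prostate epithelium is known for its high zinc content. Ferritin stores iron in a shell of light and heavy chains, TFRC brings in iron bound to transferrin, and HMOX1 opens the heme ring and releases its iron. When iron is scarce, iron regulatory proteins bind iron response elements, which blocks translation of ferritin transcripts and stabilises the TFRC transcript. HMOX1 and both ferritin chains are also targets of NRF2, the transcription factor of the oxidative stress response.

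The promoters of MT1H, MT1X and MT2A are shown because their metal response elements are the feature for which the family is known. RefSeq start windows (GRCh38.p14, 250 bases before to 50 after the gene start) were matched by symbol for MT1H, MT1X, MT2A, FTL and TFRC. The 250 bases before each metallothionein start follow, all on the plus strand, with matches to the metal response element core in capitals (TGCACNC or TGCGCNC, read on either strand). MT1H lies at chr16:56669564-56669813, MT1X at chr16:56682220-56682469 and MT2A at chr16:56608334-56608583.
MT1H: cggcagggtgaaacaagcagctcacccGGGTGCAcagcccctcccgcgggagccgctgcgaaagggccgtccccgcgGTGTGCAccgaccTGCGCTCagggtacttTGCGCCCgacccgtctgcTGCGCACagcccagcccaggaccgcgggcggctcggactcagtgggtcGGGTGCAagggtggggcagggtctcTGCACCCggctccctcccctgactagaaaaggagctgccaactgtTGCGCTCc
MT1X: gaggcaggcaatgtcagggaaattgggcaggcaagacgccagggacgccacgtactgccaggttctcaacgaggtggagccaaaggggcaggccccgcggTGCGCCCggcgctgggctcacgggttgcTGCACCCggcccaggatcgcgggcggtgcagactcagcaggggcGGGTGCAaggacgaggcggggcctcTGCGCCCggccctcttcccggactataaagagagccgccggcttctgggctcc
MT2A: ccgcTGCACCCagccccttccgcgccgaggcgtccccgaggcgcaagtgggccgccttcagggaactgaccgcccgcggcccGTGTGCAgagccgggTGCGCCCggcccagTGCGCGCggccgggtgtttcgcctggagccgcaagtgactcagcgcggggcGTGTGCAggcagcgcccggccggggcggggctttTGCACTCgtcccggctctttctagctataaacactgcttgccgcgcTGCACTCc

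Over the whole 300-base window the core matched 8 times for MT1H, 8 times for MT2A and 4 times for MT1X. Of all 35116 promoter windows, 0.601% held at least 4 matches and 0.0199% at least 8. The TFRC window held 3 matches, of which a pair overlap, and 2.3% of all windows held at least 3, while the FTL window held 0. The antioxidant response element core (TGACNNNGC or TGAGNNNGC, either strand), the kind of site NRF2 binds, matched 2 times in the MT1X window, 1 time in that of MT2A and 0 times in the others, and 29.1% of all windows held at least 1. The TATA box letters TATAAA, read on either strand, matched 1 time each in the windows of MT1X, MT2A and TFRC, against 11.5% of all windows. A match is a run of letters and not a measured binding site.

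The light chain of ferritin is shown for its iron response element, the hairpin that iron regulatory proteins hold. The iron response element core, which is the bulged C and loop of that hairpin on the transcript strand, matched 1 time within the 50 bases after the FTL start, and such a match was present in 1.67% of all windows over those bases. The stretch printed below lies at chr19:48965335-48965358 on the plus strand, with the match in capitals.
FTL: ctcttgCTTCAACAGTGTttggac

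**Figure D1:**
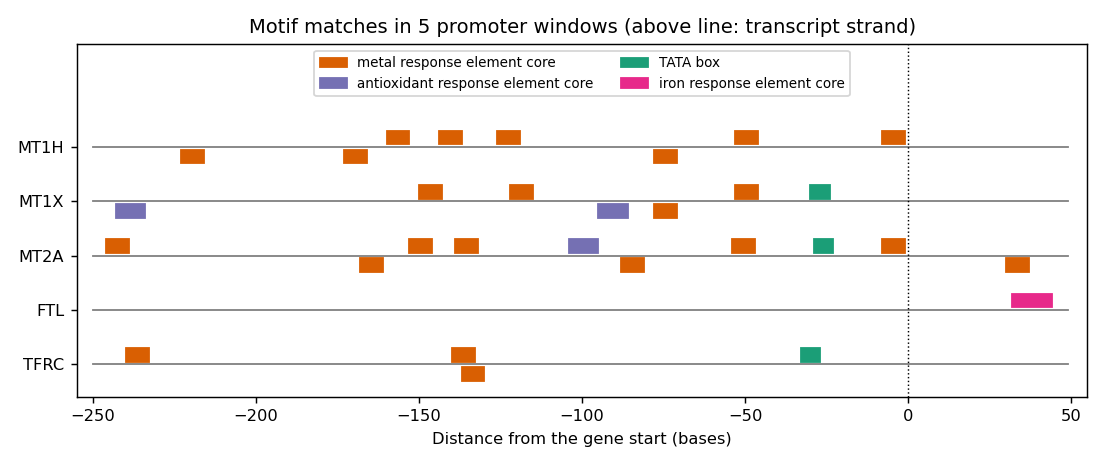
Motif matches in 5 RefSeq promoter windows, plotted by distance in bases from the gene start, with matches on the transcript strand above each line and on the other strand below it. The MT1H and MT2A windows each hold 8 matches to the metal response element core, the MT1X window 4, the TFRC window 3 and the FTL window 0, where the iron response element core matches 1 time.

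Signals are the deposited MAS5 values, in arbitrary units on a linear scale. The level of a probe set depends on its probes, so no transcript is said to be more abundant than another. Mean signal was used to leave dim probe sets out of the test. It was also used to choose 1 probe set per gene and the genes named from each list. Median signals per array were 77.4 to 83.2. Of the luminal prostate markers, 7 of 10 were analysed, and all 7 were above the filter level of 32.2 that a probe set's mean had to reach to be tested. Their summed signal was 21992 and 23341 in the MED1 samples, against 22846 and 25074 in the empty vector samples. All 4 analysed macrophage and leukocyte markers lay under the filter level on every array, at 14.4 or less. Some markers of other cell types lay above it on every array, namely the fibroblast markers VIM at 533 to 571 and COL1A1 at 65.8 to 156, the liver marker TTR at 113 to 164, the basal prostate marker KRT14 at 69.9 to 108 and the erythroid marker HBB at 42.3 to 83.96. None of the tested markers of any list passed the test between the groups, and their part in the results below was not tested. MED1 itself read 559 and 807 in the MED1 samples by its dimmer probe set, against 292 and 315 in the empty vector samples (log2 fold change 1.11 ± 0.16 SE, limma, Benjamini-Hochberg adjusted p = 0.0344), and the groups overlapped on its brighter one.

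None of the member probe sets passed the test of MED1 against empty vector. Of the 15 probe sets 14 were bright enough to be tested, and 0 of these 14 passed (limma, adjusted p from 0.374 to 0.959), where 0.308% of all 13329 tested probe sets passed. At an unadjusted p of 0.05, 5 of the 14 lay past the threshold, all higher in MED1, against 3.98% of all tested probe sets in that direction. Both MED1 samples lay above both empty vector samples on 7 of the 14, against 17.2% of all tested probe sets, and on 0 of the 14 did both lie below, against 22.6%. The log2 fold change was positive on 13 of the 14, with a median of 0.17, and positive on 46.5% of all tested probe sets, with a median of -0.02. The members were chosen with earlier results of these data known, so these shares do not test them. Nor are the counts of independent measurements, since 11 of the 15 are of the kind whose name ends in _x_at. Affymetrix gives that ending to probe sets whose probes may also match other transcripts, and all metallothionein and FTL probe sets tested here carry it. A level here is averaged over all cells of a sample and is relative to the other signals of its array. A change in a few cells and a smaller change in all cells therefore cannot be told apart.

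**Figure D2:**
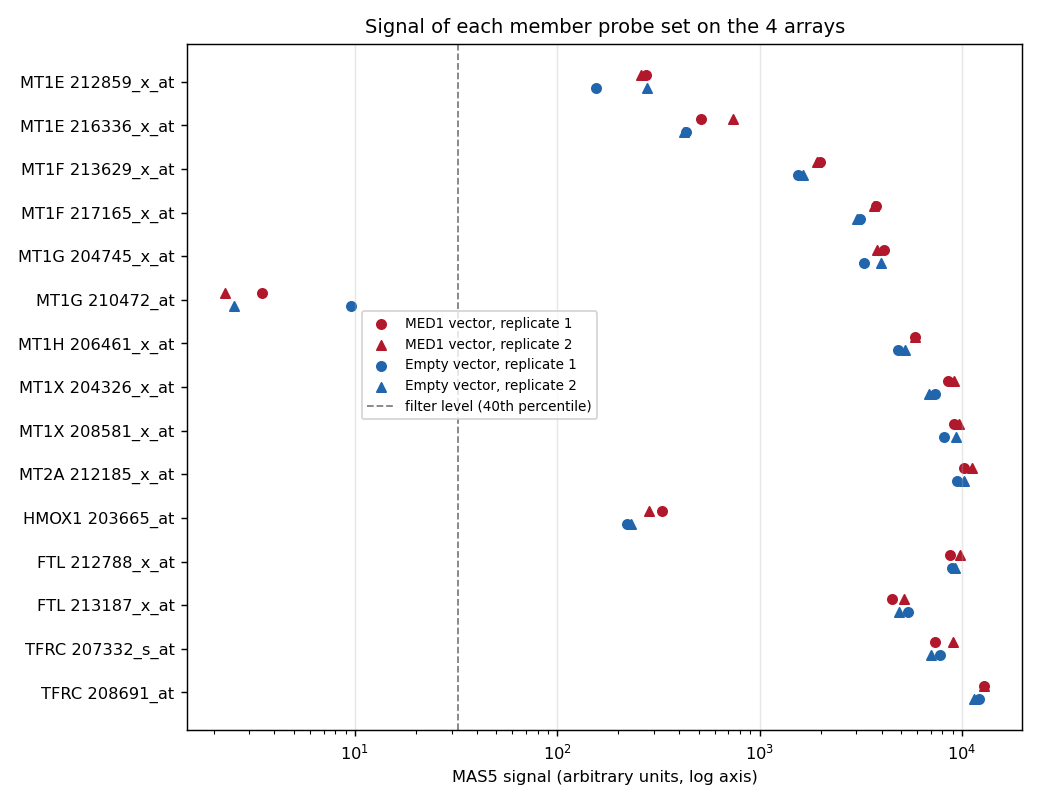
MAS5 signal (log axis) of the 15 member probe sets on the 4 arrays, with the MED1 samples in red above the empty vector samples in blue on each line and the filter level dashed. The groups separate on 7 of the 14 tested probe sets, and the second MT1G probe set lies under the filter level on every array.

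All 9 tested metallothionein probe sets had a positive log2 fold change, from 0.11 to 0.51 with a median of 0.27, and on 5 of the 9 both MED1 samples lay above both empty vector samples, against 17.2% of all tested probe sets. None of the 9 passed, and 4 had an unadjusted p under 0.05, all higher in MED1, against 3.98% of all tested probe sets. The lowest of the 4 arrays was an empty vector sample on each, replicate 1 on 6 of the 9 and replicate 2 on 3.

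MT1F, an isoform of the MT1 cluster, read higher in both MED1 samples than in either empty vector sample by both of its probe sets. Its probe set 217165_x_at read 3758 and 3653 in the MED1 samples, against 3117 and 3027 in the empty vector samples. The other, 213629_x_at, read 1976 and 1914 in the MED1 samples, against 1546 and 1642 in the empty vector samples. The ratio of a MED1 sample to an empty vector sample was 1.17 to 1.28 times on 213629_x_at and 1.17 to 1.24 times on 217165_x_at. The log2 fold changes were 0.28 ± 0.09 and 0.27 ± 0.09 (SE), and neither passed (limma, adjusted p = 0.405 and adjusted p = 0.431). Both probe sets end in _x_at, and whether their signal came from MT1F or from other metallothioneins was not tested.

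MT1X, another isoform of the same cluster, differed between its probe sets. By 204326_x_at it read 8534 and 9113 in the MED1 samples, against 7366 and 6834 in the empty vector samples, with no overlap. By 208581_x_at it read 9137 and 9606 in the MED1 samples, against 8132 and 9299 in the empty vector samples, where empty vector replicate 2 lay within the MED1 range. The log2 fold changes were 0.31 ± 0.10 and 0.11 ± 0.11 (adjusted p = 0.404 and adjusted p = 0.804, limma). By 208581_x_at it was 0.01 without empty vector replicate 1 and 0.20 without empty vector replicate 2. With the replicate number as a block, which 2 pairs cannot establish as a real pairing, 204326_x_at alone among the members passed (adjusted p = 0.0391).

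MT1E had the highest fold change among the tested metallothioneins, by 216336_x_at, and the highest SE, by 212859_x_at. By 216336_x_at it read 512 and 735 in the MED1 samples, against 430.5 and 421 in the empty vector samples. MED1 replicate 2 stood above the other 3 arrays, and the log2 fold change of 0.51 ± 0.16 (adjusted p = 0.374, limma) was 0.26 without it. The value was 0.77 without MED1 replicate 1. With 1 MED1 sample left, that group has no spread of its own. By 212859_x_at it read 275 and 259.5 in the MED1 samples, against 155 and 278 in the empty vector samples. Here empty vector replicate 1 was low and replicate 2 was the highest of the 4, and the log2 fold change of 0.34 ± 0.23 became -0.05 without empty vector replicate 1.

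MT1H read 5826 and 5829.9 in the MED1 samples, against 4838 and 5238 in the empty vector samples. The groups did not overlap, and the log2 fold change was 0.21 ± 0.10 (adjusted p = 0.553, limma). MT2A, the isoform usually most abundant in human tissues, read 10206 and 11224 in the MED1 samples, against 9434 and 10230.1 in the empty vector samples. Its groups overlapped, with a log2 fold change of 0.12 ± 0.11 whose 95% interval ran from -0.12 to 0.36 (adjusted p = 0.76). It was 0.05 without MED1 replicate 2 and 0.19 without MED1 replicate 1. That interval reaches a 1.29-fold higher level at most.

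MT1G, a further MT1 isoform, was tested by 1 of its 2 probe sets. By 204745_x_at it read 4118 and 3777 in the MED1 samples, against 3291 and 3990.0 in the empty vector samples, with overlap and a log2 fold change of 0.12 ± 0.11 (adjusted p = 0.787, limma). It was -0.02 without empty vector replicate 1 and 0.26 without empty vector replicate 2. By 210472_at, the only metallothionein member probe set here without the _x_at ending, it read 3.46 and 2.28 in the MED1 samples, against 9.58 and 2.52 in the empty vector samples. These values lie under the filter level, so 210472_at was not tested. Whether the signal of 204745_x_at came from MT1G or from other metallothioneins was not tested.

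HMOX1, which has a single probe set without that ending, read 328 and 284 in the MED1 samples, against 219.7 and 232 in the empty vector samples. Both MED1 samples were above both empty vector samples, by 1.22 to 1.49 times. The log2 fold change was 0.41 ± 0.14, or 1.33-fold with a 95% interval of 1.07 to 1.64, and it did not pass over all tested probe sets (limma, unadjusted p = 0.0147, adjusted p = 0.43). It was 0.31 to 0.51 with an array left out.

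FTL, the ferritin light chain, had probe sets of opposite sign. By 212788_x_at it read 8763 and 9804 in the MED1 samples, against 8920.1 and 9242 in the empty vector samples. By 213187_x_at it read 4531 and 5152 in the MED1 samples, against 5398 and 4872 in the empty vector samples. The groups overlapped on both. The log2 fold changes were 0.03 ± 0.10 and -0.09 ± 0.11 (adjusted p = 0.959 and adjusted p = 0.849, limma), and their 95% intervals ran from -0.21 to 0.27 and from -0.33 to 0.15. A probe set named for FTH1P5, a pseudogene of the ferritin heavy chain and no member, read 14019 and 14998 in the MED1 samples, against 13578 and 14196 in the empty vector samples. It was chosen for its name with its values known, and it also carries the _x_at ending.

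TFRC, the iron uptake receptor, read 12851 and 12903 by 208691_at in the MED1 samples, against 12156 and 11421 in the empty vector samples, without overlap. By 207332_s_at it read 7376 and 9037 in the MED1 samples, against 7794 and 7060.2 in the empty vector samples, where MED1 replicate 1 lay below empty vector replicate 1. The log2 fold changes were 0.13 ± 0.10 and 0.14 ± 0.12, and neither passed (adjusted p = 0.738 and adjusted p = 0.765, limma). Their 95% intervals ran from -0.10 to 0.36 and from -0.14 to 0.41. By 208691_at it was 0.08 without empty vector replicate 2, and by 207332_s_at -0.0083 without MED1 replicate 2 and 0.28 without MED1 replicate 1.

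**Figure D3:**
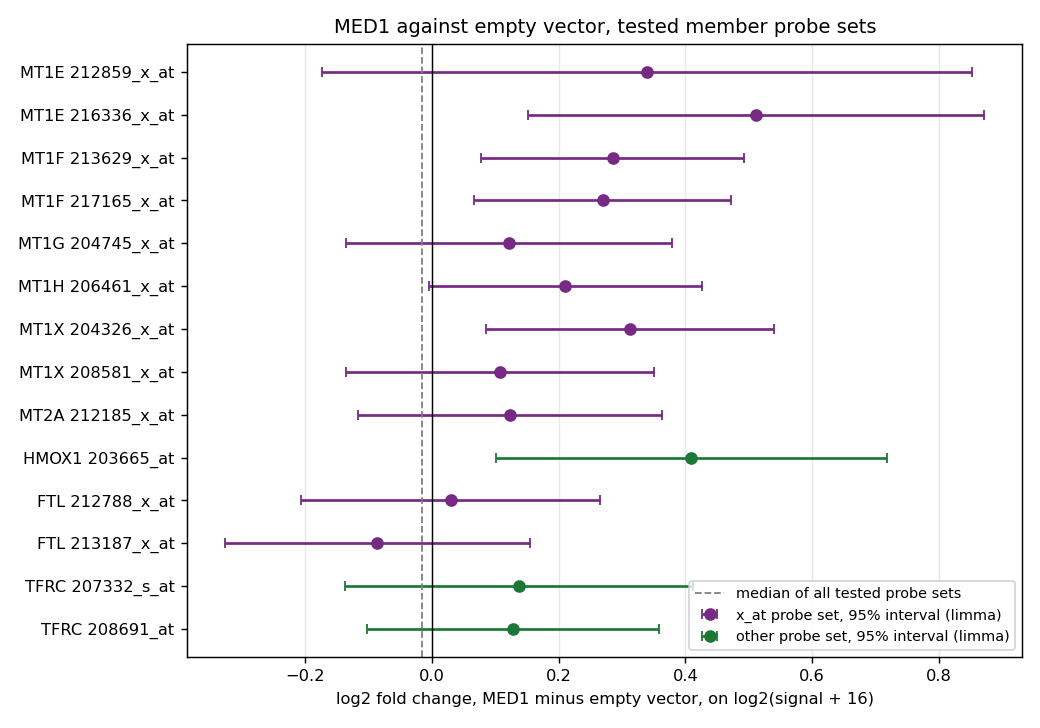
Log2 fold change of MED1 over empty vector for the 14 tested member probe sets, with limma 95% intervals that are not adjusted for the number of probe sets. Of the 14 points 13 lie above 0, and the intervals of 5 leave out 0.

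The median of the metallothionein probe sets leaned on empty vector replicate 1, which was the lowest array on 6 of the 9. Without that array the median log2 fold change of the 9 probe sets was 0.15, and 7 of the 9 were positive. It was 0.25 to 0.26 with any other array left out, with all 9 positive. By arithmetic alone, the value must rise without replicate 1 on the 3 of the 9 where empty vector replicate 2 was lowest. These were MT1X 204326_x_at at 0.37, MT1F 217165_x_at at 0.29 and MT1E 216336_x_at at 0.53.

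**Figure D4:**
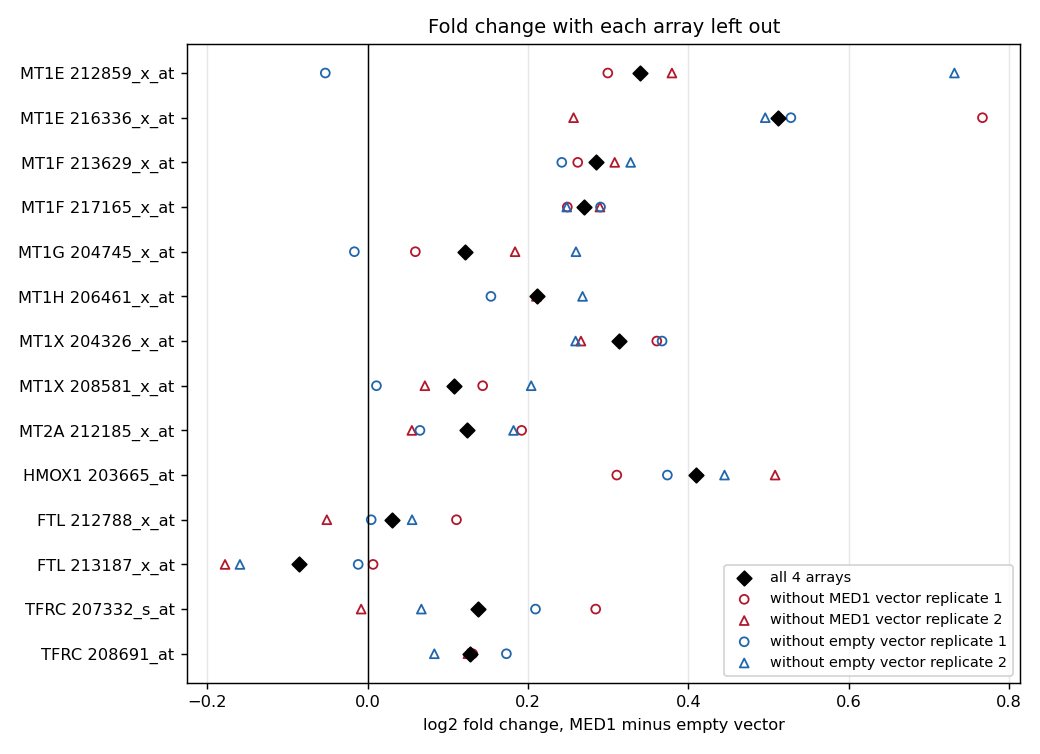
Log2 fold change of the 14 tested member probe sets with all 4 arrays (black) and with each array left out (red, MED1 samples; blue, empty vector samples). Without empty vector replicate 1, MT1E 212859_x_at and MT1G 204745_x_at lie below 0, at -0.05 and -0.02.

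Other genes of these pathways were compared by the tested probe set of highest mean for each gene. Of 87 tested genes 1 passed, against 0.308% of all 13329 tested probe sets. That gene was SLC7A11, the cystine transporter, on the NRF2 list. It read 616 and 559 in the MED1 samples by 209921_at, against 1996 and 1425 in the empty vector samples (log2 fold change -1.50 ± 0.15, limma, adjusted p = 0.00391). By its other probe sets it gave -1.73 on 217678_at and -0.29 on 207528_s_at, whose signals were 35.7 to 56.8. SLC7A11 is also a target of ATF4, the transcription factor of amino acid shortage, and was known to differ in these data when the list was written. Of the other 18 tested genes of the NRF2 list, which includes the detoxifying enzyme NQO1 and the glutathione synthesis subunits GCLC and GCLM, 0 passed. The list of 19 had a median of -0.02, as did all tested probe sets. Its gene of highest fold change was the autophagy receptor SQSTM1, at 1401 and 1380 in the MED1 samples, against 1192 and 1273 in the empty vector samples (0.17 ± 0.09, adjusted p = 0.606). The bright peroxiredoxin PRDX1 gave 0.02 ± 0.11.

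In the zinc list 0 of 12 genes passed. Its median was 0.05, and 8 of the 12 values were positive, against 46.5% of all tested probe sets. Over all lists 43 of the 87 genes were positive. SLC39A7, a zinc transporter of the endoplasmic reticulum and Golgi, read 815 and 822 in the MED1 samples, against 555 and 707 in the empty vector samples (0.38 ± 0.13, adjusted p = 0.432, limma). The zinc exporter SLC30A1, a classical MTF1 target, read 909.6 and 944 in the MED1 samples, against 1046 and 785 in the empty vector samples, with a log2 fold change of 0.03 ± 0.13, and MTF1 gave -0.01 ± 0.12. SLC30A1, MTF1, NQO1, GCLC and GCLM are given for their roles, outside the rule for named genes. The zinc transporters SLC39A6 and SLC39A9 gave 0.06 ± 0.12 and -0.15 ± 0.24. Outside the members, MT1HL1, also read by an _x_at probe set, read 8742 and 9064 in the MED1 samples, against 7583 and 7816 in the empty vector samples (0.21 ± 0.10, adjusted p = 0.569), and MT3, the brain isoform, gave 0.13 ± 0.33, so 0 of 2 tested passed, with a median of 0.17.

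In the list of iron uptake, export and sensing 0 of 14 genes passed, with a median of -0.02. SLC11A2, the divalent metal transporter, read 1498 and 1401 in the MED1 samples, against 1255 and 1058 in the empty vector samples by its brightest probe set (0.33 ± 0.11, adjusted p = 0.432, limma), and 0.06, 0.01 and -0.10 on 3 other probe sets. SLC25A28, a mitochondrial iron importer, gave -0.51 ± 0.22 at signals of 56.0 and 84.0 in the MED1 samples, against 97.5 and 112 in the empty vector samples. STEAP1, a metalloreductase relative abundant in prostate, gave 0.07 ± 0.10.

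In the heme list 0 of 17 genes passed, with a median of -0.04. CPOX, an enzyme of heme synthesis, gave 0.37 ± 0.17, ABCB6, a porphyrin transporter, -0.28 ± 0.11, and the heme-binding protein HEBP2 -0.04 ± 0.10. In iron-sulfur cluster assembly 0 of 14 passed, with a median of 0.01. The assembly protein ISCA1 gave 0.19 ± 0.11, the cytosolic assembly factor CIAO3 -0.42 ± 0.27 and the chaperone HSPA9 -0.13 ± 0.10. By its other probe sets HSPA9 gave 0.03 on 200690_at and 0.18 on 200692_s_at. On 200692_s_at both MED1 samples lay above both empty vector samples. In copper handling 0 of 9 passed, with a median of 0.03. The copper importer SLC31A1 read 1047 and 989.8 in the MED1 samples, against 1412 and 1229 in the empty vector samples, with a log2 fold change of -0.37 ± 0.10 (adjusted p = 0.319, limma). CCS, the copper chaperone of superoxide dismutase, gave 0.23 ± 0.14, and SOD1 itself -0.0036 ± 0.10. At an unadjusted p of 0.05, 7 of the 87 genes lay past the threshold, where 9.19% of all tested probe sets did.

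**Figure D5:**
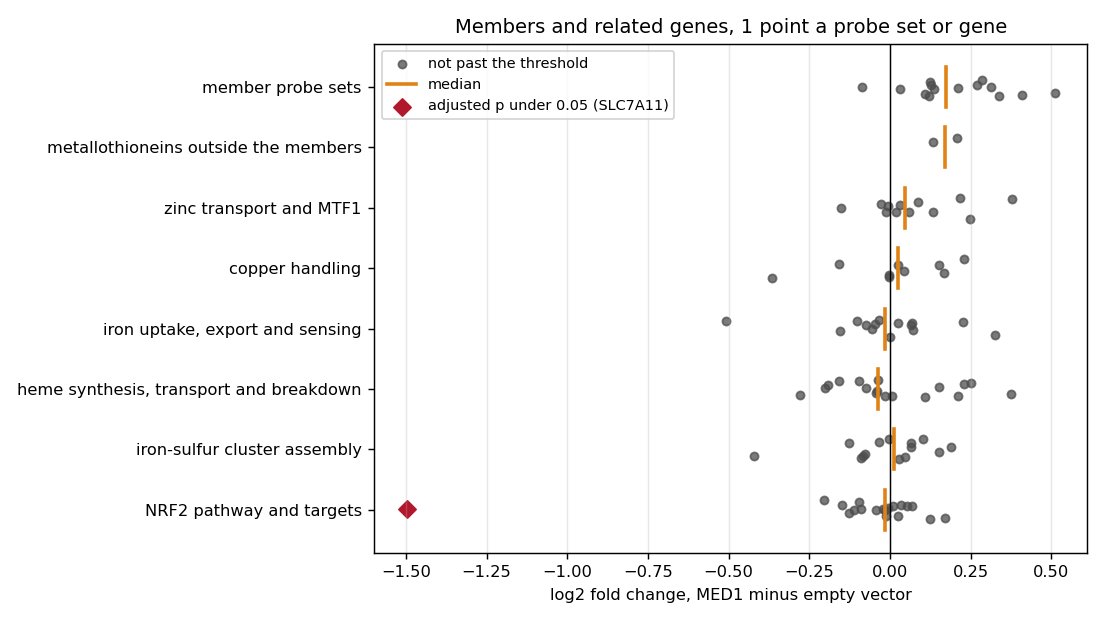
Log2 fold change of MED1 over empty vector for the 14 tested member probe sets and for the tested genes of 7 related lists, with each list's median in orange. SLC7A11 at -1.50 is the 1 gene past the threshold, and the medians of the 7 lists lie between -0.04 and 0.17.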

How the data were processed

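The 4 arrays (2 MED1, 2 empty vector) were grouped by title. The free-text description names the MED1 vector for all 4 and was set aside, because title, source name and transfection label give the empty vector for 2. The deposited values are signal intensities that the authors computed with MAS5, per the submitters' processing notes, whose version is not given in the sources used here. The trimmed mean was 500.2 on each array, so nothing was rescaled. No detection calls were used, and array precision is limited by their number.

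Of 22277 probe sets, 62 controls were left out. Entrez identifiers matched RefSeq names of GRCh38.p14. Signals were taken as log2(value + 16), which understates changes of dim probe sets. Probe sets with a mean under the 40th percentile (32.2) were left out, which kept 13329. The comparison of MED1 with empty vector used limma 3.58.1 under R 4.3.3 (lmFit, eBayes with intensity trend; 7.12 prior and 2 residual degrees of freedom), with Benjamini-Hochberg adjustment over all tested probe sets and a threshold of 0.05. Tests are two-sided, and SE is limma's. Nothing in the labels says that duplicates were separate cultures, so p-values reach no further than the spread between these samples. For each probe set, limma draws part of that spread from all tested probe sets. An exact permutation test over so few arrays has no outcome under 0.05. The fit was tested on data simulated from its own variance model, with log2 fold changes larger than that of any member.

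The members and lists were chosen with earlier results of these data known. Named are all members, MED1, passing list genes, and each list's genes of highest and lowest fold change and highest mean, with exceptions stated. Alternatives covered pseudocount, scaling, filter, variance model, replicate block and each array left out.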

Additional observations from a re-analysis of the deposited data

How the results depend on the processing

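The count of passing members without probe sets ending in _x_at or _s_at came from the same fit and could not exceed 0. The count of 0 passing members held under 11 of the 13 other fits. It was 1 with the replicate number as a block (MT1X 204326_x_at, log2 fold change 0.31) and 0 to 1 with an array left out (MT1E 216336_x_at, 0.77, without MED1 replicate 1). Over all probe sets 41 passed, 0 with no filter (limma, 0 of 22215, and 1680 at an unadjusted p of 0.05), 7 without the variance trend, 230 with the replicate block and 25 to 215 with an array left out. The 1 passing gene of the lists became 0 with no filter and 0 without the variance trend. Same-numbered arrays deviated together at a correlation of 0.12, too few pairs to call paired. Direction turned, without a call, for FTL 212788_x_at (-0.0031 with quantile normalization; -0.051 to 0.11 with an array left out), FTL 213187_x_at (-0.18 to 0.0066), TFRC 207332_s_at (-0.0083 to 0.28), MT1E 212859_x_at (-0.053 to 0.73) and MT1G 204745_x_at (-0.017 to 0.26). The cause was not tested. A group reduced to 1 array takes its spread from the other group. Centring moved the median of all tested probe sets to 0.04 and that of the metallothioneins to 0.32. Without detection calls, signals near the filter level have no known background.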
